A study of Homo sapiens with 6 samples.

Results

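The genes of the integrin alpha chains, integrin beta chains and laminin chains were examined in HuCCT1, an established human cholangiocarcinoma cell line. Members were chosen by biotype and name, with no measured value in the rule: a protein-coding gene whose symbol is that of an integrin alpha, an integrin beta or a laminin alpha, beta or gamma chain. The choice was made with earlier results of these data known. The rule took 38 of the 58735 genes in the count table, 18 of them integrin alpha, 8 integrin beta and 12 laminin genes. RNA was sequenced from HuCCT1 cells given an siRNA against C1QBP (siC1QBP, 3 libraries) and from HuCCT1 cells given a control siRNA (siNC, 3 libraries). All 6 libraries are of that 1 line, and the labels name no further agent. The sources used here give neither the siRNA sequences nor the time after transfection. The series title places C1QBP in a loop with PAICS, c-Myc and FAK, a kinase recruited to integrin adhesions.

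Integrins are surface receptors built from an alpha and a beta chain, and the pair decides which matrix protein is bound. Laminins are trimers of an alpha, a beta and a gamma chain that make up the basement membrane under epithelia such as the bile duct. Laminin that holds LAMA3 and LAMB3 anchors hemidesmosomes through the integrin of ITGA6 and ITGB4, while ITGB1 joins ITGA1 or ITGA2 in collagen receptors and ITGA3 in a laminin receptor. ITGAV pairs with ITGB1, ITGB3, ITGB5, ITGB6 or ITGB8 for ligands such as vitronectin, fibronectin and latent TGF-beta.

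C1QBP stood at 59.1, 57.6 and 60.0 CPM (counts scaled to a common, TMM-adjusted library size) in siC1QBP replicates 1, 2 and 3 and at 175, 181 and 185 CPM in siNC libraries, a fall to 32.7% of the control level (95% interval 30.4% to 35.1%; edgeR adjusted p = 1.39e-12). Total counts ranged from 17122252 to 20416243 per library, so a gene with no count could hold up to 0.149 to 0.173 CPM, the level of 3 counts, for counting error only. Replicate 1 of siC1QBP stood apart within its group: the chi-square statistic per degree of freedom was 6.66 and 6.77 against replicates 2 and 3, and 2.09 between those. Values without it are given beside each of the 5 calls and for ITGA6, ITGAE, ITGB2, ITGB3, LAMA3 and LAMC1. Replicate 1 of siNC stood apart less, at 3.67 and 3.40 against siNC replicates 2 and 3, with 2.13 between those. By the same statistic it was the siNC library nearest to each siC1QBP library. All 10 biliary epithelial markers passed the low-count filter and summed to 7871 to 8211 CPM in siC1QBP and 8621 to 9116 CPM in siNC libraries. Leukocyte markers summed to 10.4 to 12.3 and 11.9 to 12.6 CPM, with CD3E at 0. Fibroblast markers summed to 11.7 to 14.7 and 10.5 to 12.0 CPM, endothelial markers to 3.41 to 4.61 and 2.85 to 4.07 CPM, and platelet markers to 8.95 to 10.5 and 8.24 to 9.04 CPM. Hepatocyte markers summed to 463 to 534 and 431 to 440.4 CPM, nearly all of it SERPINA1, with APOA2 and TTR at 0. The part of these differences in the results was not tested, and in bulk RNA fewer cells of a kind and less RNA per cell cannot be told apart.

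In siC1QBP libraries 5 of the chains rose: the collagen-binding alpha chains ITGA1 and ITGA2, the TGF-beta-activating beta chain ITGB8, and the laminin chains LAMA4 and LAMB2. The fold over siNC was 1.48 for ITGB8, 1.43 for LAMA4, 1.40 for ITGA1, 1.21 for LAMB2 and 1.18 for ITGA2. The abundant chains ITGB1, ITGA3, ITGB4, ITGA6, ITGB5, ITGAV, LAMA3, LAMB3, LAMA5, LAMC1 and LAMB1 were not called, with log2 fold changes between -0.053 and 0.10. A call is an adjusted p under 0.05 in the edgeR quasi-likelihood test, with Benjamini-Hochberg adjustment over all 15530 genes that passed the low-count filter. Of the 38 chains 25 passed that filter, of which 5 were called higher, 0 lower and 20 neither. Over all tested genes 14.3% were called, 6.47% higher and 7.84% lower (1005 and 1217 genes; 1253 and 908 with libraries scaled by size alone). The count of 0 lower was the same with edgeR, DESeq2 and limma-voom. At an unadjusted edgeR p under 0.05, 1 member (ITGAE) was lower and 9 were higher. The share of all tested genes at that unadjusted level is not given here, so no excess is read from these counts. The median log2 fold change was 0.075 over the 25 members and 0.0026 over all tested genes. It was 0.023 over the tested protein-coding genes at least as long as the shortest tested member. Where the groups of libraries are said to overlap or not, this is a description. Full separation of 3 against 3 libraries has an exact permutation p of 0.1, and its share over all tested genes is not given here.

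The promoters of ITGA1 and ITGA2, neighbours on chromosome 5 that both rose, of ITGB8, with the largest called fold, and of LAMA3, a hemidesmosome laminin chain that was not called, are printed to show which motifs lie at their starts. Each runs from 250 bases before to 50 bases after a RefSeq start (GRCh38.p14, plus strand, 5′ to 3′), at chr5:52787666-52787965, chr5:52989102-52989401, chr7:20330650-20330949 and chr18:23872770-23873069. Capitals mark matches, on either strand, to TGANTCA (the AP-1 motif of FOS and JUN dimers) or to GCGNGGGCG (the EGR1 motif).
ITGA1: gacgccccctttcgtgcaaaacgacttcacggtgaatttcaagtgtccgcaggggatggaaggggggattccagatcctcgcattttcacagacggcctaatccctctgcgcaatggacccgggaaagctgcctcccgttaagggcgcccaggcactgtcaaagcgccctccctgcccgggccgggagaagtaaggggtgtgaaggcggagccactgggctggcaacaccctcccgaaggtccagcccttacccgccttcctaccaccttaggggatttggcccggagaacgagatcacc
ITGA2: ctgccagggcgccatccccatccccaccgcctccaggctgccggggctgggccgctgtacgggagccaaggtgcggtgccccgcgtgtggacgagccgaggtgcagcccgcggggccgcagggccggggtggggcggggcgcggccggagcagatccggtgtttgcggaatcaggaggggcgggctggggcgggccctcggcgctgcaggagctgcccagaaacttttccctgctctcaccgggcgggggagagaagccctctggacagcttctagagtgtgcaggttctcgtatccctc
ITGB8: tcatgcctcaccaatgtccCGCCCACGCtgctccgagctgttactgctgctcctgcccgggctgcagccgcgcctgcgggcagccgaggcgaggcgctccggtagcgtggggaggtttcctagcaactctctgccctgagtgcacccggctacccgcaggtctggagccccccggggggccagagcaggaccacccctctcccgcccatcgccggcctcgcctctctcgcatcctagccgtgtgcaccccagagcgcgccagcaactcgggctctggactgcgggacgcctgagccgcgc
LAMA3: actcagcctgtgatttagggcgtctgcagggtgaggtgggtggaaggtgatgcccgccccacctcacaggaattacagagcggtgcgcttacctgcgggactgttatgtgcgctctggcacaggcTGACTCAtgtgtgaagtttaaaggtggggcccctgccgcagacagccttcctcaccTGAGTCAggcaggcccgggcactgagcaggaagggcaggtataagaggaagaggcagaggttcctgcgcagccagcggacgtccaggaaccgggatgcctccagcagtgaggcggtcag

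The LAMA3 promoter held 2 AP-1 matches, beginning 125 and 69 bases before a start that lies 183577 bases inside the annotated gene. ITGB8 held 1 EGR1 match beginning 231 bases before the start, which overlaps a match to the GC box GGGCGG. ITGA1 held none of these motifs and ITGA2 only GC boxes, 4 in number. The ITGA1 stretch also holds the annotated start of PELO, at 52787940 on the same strand. PELO was called lower (log2 fold change -0.16; edgeR adjusted p = 0.0413), so the stretch is not particular to a gene that rose. RefSeq promoters were matched for 26 of the 38 members, in 33 entries. AP-1 matches lay in 3 entries (ITGA5, LAMA3 and 1 of 3 starts of LAMB3) and EGR1 matches in 3 (ITGB8, LAMC1 and 1 of 3 starts of ITGB5). Among all 35116 promoters of that length, 7.71% held the AP-1 motif, 9.43% the EGR1 motif and 44.95% the GC box. A match describes the letters only and shows no binding. The motifs were chosen after the fold changes were known.

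**Figure D1:**
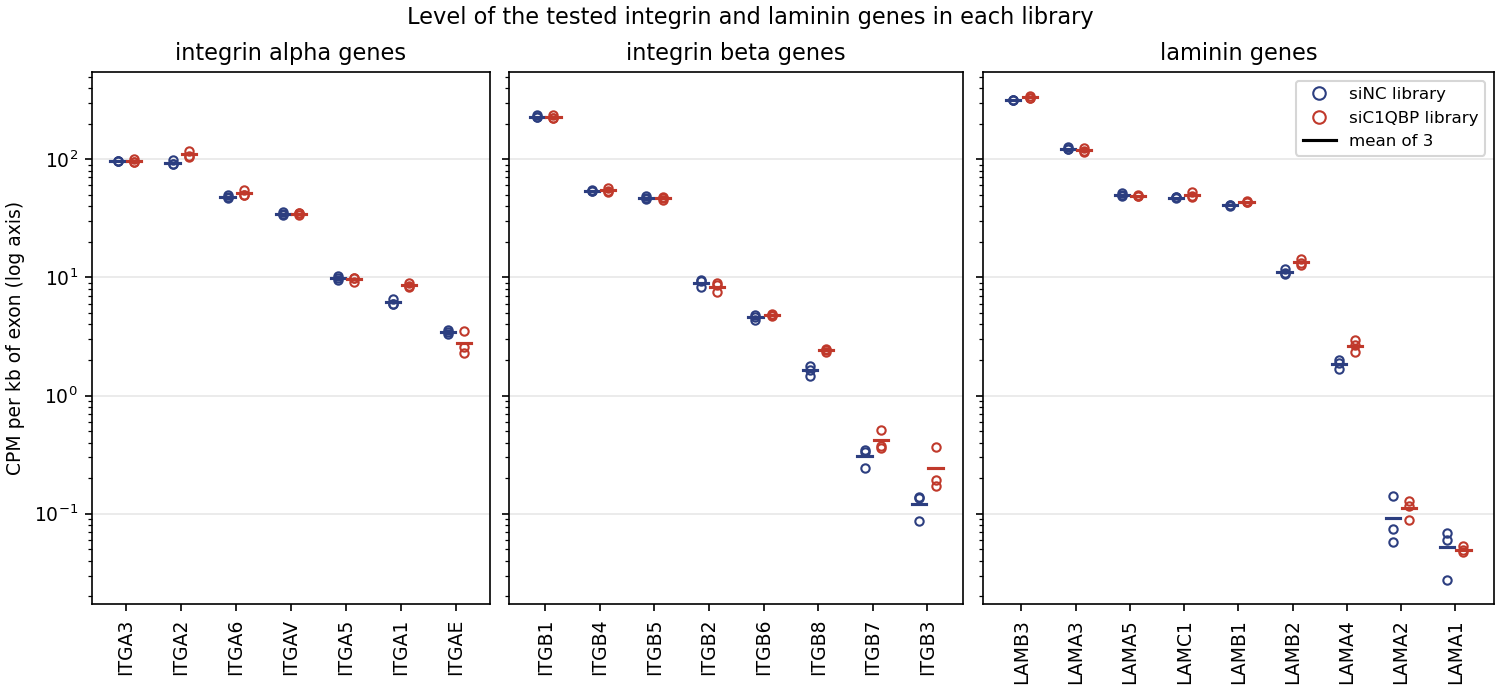
Level of the tested members reported here in CPM per kb of exon (log axis), by class, with circles for the 3 siNC (blue) and 3 siC1QBP (red) libraries and a bar for each mean. ITGB1 leads the integrins, while LAMA1 and LAMA2 lie lowest.

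Levels of different genes are compared here in CPM per kb of exon. The length used is the union of all GENCODE exons of a gene, which makes levels of genes with long exon unions approximate. In siNC libraries the hemidesmosome laminin chains LAMB3 and LAMA3 lay at 316 ± 1.42 and 123 ± 2.70 CPM per kb (SD, n = 3). LAMA5 at 50.1 ± 1.253, LAMC1 at 47.2 ± 0.596 and LAMB1 at 40.7 ± 0.471 CPM per kb, the chains of a widespread epithelial trimer, lay close together. LAMB2 followed at 11.1 ± 0.533 and LAMA4, best known from vessels and muscle, at 1.85 ± 0.156 CPM per kb. In siC1QBP means LAMC1 (49.8 ± 2.31) came before LAMA5 (48.9 ± 0.4998 CPM per kb), a gap within the spread of LAMC1.

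ITGB1, the partner of most alpha chains, led the integrins at 229 ± 5.42 CPM per kb in siNC libraries. Among beta chains ITGB4 (54.1 ± 0.947), ITGB5 (47.3 ± 1.13), ITGB2 (9.01 ± 0.608), ITGB6 (4.604 ± 0.249) and ITGB8 (1.63 ± 0.160 CPM per kb) followed in that order. Among alpha chains ITGA3 (96.6 ± 0.508) and ITGA2 (93.6 ± 4.25 CPM per kb) lay within their spread of each other. Below them came ITGA6 (48.3 ± 1.39), ITGAV (34.4 ± 1.05), ITGA5 (9.85 ± 0.383), ITGA1 (6.15 ± 0.379) and ITGAE (3.44 ± 0.122 CPM per kb). In siC1QBP libraries ITGA2 (110.0 ± 7.09) stood above ITGA3 (96.1 ± 2.97 CPM per kb). That order depends on the lengths used, as in CPM ITGA3 lay above ITGA2 in every library.

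**Figure D2:**
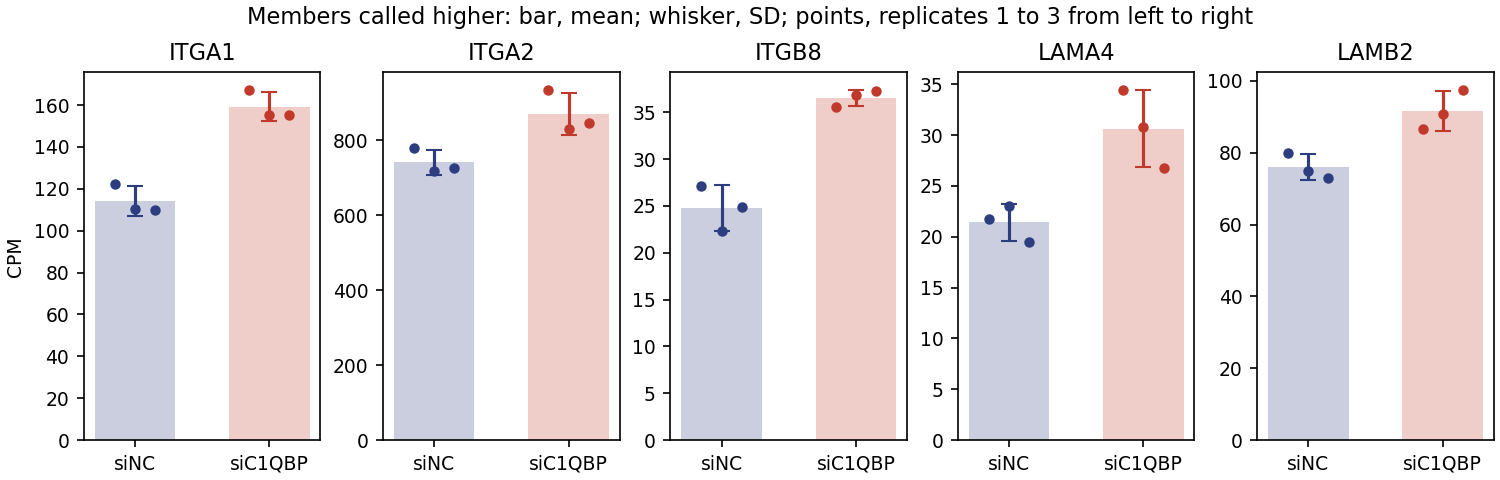
CPM of the 5 members called higher: bars are means of 3 libraries, whiskers SD, points replicates 1 to 3 from left to right. In each gene the lowest siC1QBP library lies above the highest siNC library, a description that adds nothing to the test behind the calls.

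ITGA1 (ENSG00000213949; hg38 chromosome 5, 52787896 to 52959210, plus strand) encodes the alpha chain of a receptor for basement membrane collagen. It stood at 167, 155 and 155 CPM in siC1QBP replicates 1, 2 and 3 and at 122, 110.3 and 109.9 CPM in siNC replicates 1, 2 and 3. The groups did not overlap, and replicate 1 was the highest library of each. The fitted log2 fold change was 0.48 (edgeR adjusted p = 2.25e-05; SE 0.053), and 0.44 without siC1QBP replicate 1. ITGA1 shares 475 of its 18566 exon bases, on the same strand, with PELO, a ribosome rescue factor. PELO was lower in siC1QBP libraries, at 76.7 against 85.7 CPM (log2 fold change -0.16; edgeR adjusted p = 0.0413). The sources used here do not say how reads of the shared stretch were assigned.

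ITGA2 (ENSG00000164171; hg38 chromosome 5, 52989326 to 53094779, plus strand) encodes the alpha chain of a receptor for fibrillar collagen. It stood at 934, 831 and 846 CPM in siC1QBP replicates 1, 2 and 3 and at 779, 718 and 725 CPM in siNC libraries. The groups did not overlap, and replicate 1 was again the highest library of each. The fitted log2 fold change was 0.23 (edgeR adjusted p = 0.00404; SE 0.049), and 0.18 without siC1QBP replicate 1 (edgeR adjusted p = 0.000729). Per kb, ITGA2 came to 0.496, 0.474 and 0.483 of its partner ITGB1 in siC1QBP libraries and to 0.419, 0.403 and 0.405 in siNC libraries. For ITGA1 over ITGB1 these ratios were 0.0379, 0.0377 and 0.0378 against 0.0280, 0.0264 and 0.0262. Ratios to a partner chain were read after the fold changes were known and carry no test.

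The alpha chains of the laminin receptors were not called. ITGA6, the hemidesmosome alpha chain, stood at 362, 324 and 328 CPM after siC1QBP and 326, 311 and 309 CPM after siNC (log2 fold change 0.10, 95% interval -0.0012 to 0.20; edgeR adjusted p = 0.179). ITGA3, which pairs with ITGB1, stood at 976, 929 and 922 CPM after siC1QBP and 943, 945 and 952 CPM after siNC (95% interval -0.088 to 0.075). The groups overlapped for both. Without siC1QBP replicate 1 the log2 fold change of ITGA6 was 0.046. ITGA2 over ITGA3 per kb was 1.19, 1.11 and 1.14 in siC1QBP and 1.02, 0.941 and 0.943 in siNC libraries. Which chain stands higher depends on the exon lengths used, 7910 bases for ITGA2 and 9802 for ITGA3. In CPM, with no division by length, ITGA3 lay above ITGA2 in every library.

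ITGAV, common to the vitronectin and TGF-beta binding integrins, stood at 285, 275 and 288 CPM after siC1QBP and 292, 276 and 279.5 CPM after siNC (95% interval of the log2 fold change -0.088 to 0.091). ITGA5, the fibronectin receptor chain, stood at 75.2, 74.7 and 68.6 CPM after siC1QBP and 71.7, 77.6 and 74.7 CPM after siNC (95% interval -0.16 to 0.083). The groups overlapped for both, and neither was called.

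ITGAE, which binds E-cadherin when paired with ITGB7, had the most negative fold change of the members. It stood at 15.2, 17.3 and 23.6 CPM in siC1QBP replicates 1, 2 and 3 and at 23.7, 22.0 and 22.9 CPM in siNC libraries. Replicates 1 and 2 of siC1QBP lay below every siNC library and replicate 3 among them. The log2 fold change of -0.29 (SE 0.12) did not pass (edgeR adjusted p = 0.125). It did without siC1QBP replicate 3 (-0.50; edgeR adjusted p = 0.00402) and with every gene of at least 1 count in the fit (-0.30; 0.0201). Without siC1QBP replicate 1 the log2 fold change was -0.16 (edgeR adjusted p = 0.349). ITGAE shares 427 exon bases with the opposite-strand kinase gene HASPIN, which stood at 21.1 and 22.1 CPM.

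ITGB8 (ENSG00000105855; hg38 chromosome 7, 20330702 to 20415754, plus strand) pairs with ITGAV in an integrin known for activating latent TGF-beta. It stood at 35.6, 36.8 and 37.2 CPM in siC1QBP replicates 1, 2 and 3 and at 27.2, 22.3 and 24.8 CPM in siNC libraries. The groups did not overlap, and the siC1QBP libraries lay closer together than the siNC libraries. The fitted log2 fold change was 0.56 (edgeR adjusted p = 0.000179; SE 0.078), and 0.58 without siC1QBP replicate 1. Per kb, ITGB8 came to 0.0677, 0.0724 and 0.0700 of ITGAV in siC1QBP libraries and to 0.0504, 0.0439 and 0.0481 in siNC libraries. The other ITGAV partners that latent TGF-beta or vitronectin binds were not called. ITGB5 stood at 303, 307 and 290.4 CPM after siC1QBP and 298, 313 and 304 CPM after siNC (95% interval -0.11 to 0.065), with overlapping groups. ITGB6, an epithelial chain, stood at 21.9, 22.8 and 22.7 CPM after siC1QBP and 20.3, 21.8 and 22.6 CPM after siNC (log2 fold change 0.058, 95% interval -0.11 to 0.22).

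ITGB1 stood at 1431, 1332 and 1332 CPM after siC1QBP and 1413, 1354 and 1359.8 CPM after siNC (95% interval of the log2 fold change -0.10 to 0.075). ITGB4, the hemidesmosome beta chain, stood at 384, 364 and 358 CPM after siC1QBP and 363, 362 and 373 CPM after siNC (95% interval -0.078 to 0.10). Both had siC1QBP libraries above and below all siNC libraries. ITGB2, the beta chain of leukocyte integrins, stood at 51.1, 60.6 and 58.8 CPM after siC1QBP and 63.1, 64.2 and 56.5 CPM after siNC (log2 fold change -0.11, 95% interval -0.26 to 0.039), and its log2 fold change was -0.041 without siC1QBP replicate 1. Its usual alpha partners had few counts or none: the highest count in any library was 13 for ITGAM, 2 for ITGAX, 1 for ITGAL and 1 for ITGAD. ITGB2 shares 303 exon bases with the antisense gene ITGB2-AS1, at 4.85 and 5.25 CPM.

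ITGB3, the platelet and endothelial chain, rested on 29, 13 and 16 counts in siC1QBP and 11, 12 and 7 counts in siNC libraries. Its log2 fold change of 1.01 (SE 0.42) did not pass (edgeR adjusted p = 0.118), and was 0.58 without siC1QBP replicate 1. ITGB3 shares 2266 of its 4394 exon bases with AC068234.1 on the same strand, which had 0 counts in all 6 libraries, so its reads are uncertain. ITGB7 lay at 1.87 ± 0.382 and 1.37 ± 0.245 CPM (SD, n = 3), with a 95% interval of the log2 fold change of -0.16 to 1.04. ITGB7 shares 1886 of its 4481 exon bases with the opposite-strand gene ZNF740, so its reads are uncertain too. Neither gene passed the test at these low counts.

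LAMA4 (ENSG00000112769; hg38 chromosome 6, 112108760 to 112254939, minus strand) encodes an alpha chain without the long amino-terminal arm of its relatives. It stood at 34.4, 30.8 and 26.8 CPM in siC1QBP replicates 1, 2 and 3 and at 21.7, 23.1 and 19.5 CPM in siNC libraries. The groups did not overlap, and siC1QBP replicate 3 lay nearest to the controls. The fitted log2 fold change was 0.51 (edgeR adjusted p = 0.00177; SE 0.094), and 0.42 without siC1QBP replicate 1 (edgeR adjusted p = 0.00234). Per kb, LAMA4 came to 0.0614, 0.0539 and 0.0471 of LAMA5 in siC1QBP libraries and to 0.0374, 0.0389 and 0.0346 in siNC libraries.

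LAMB2 (ENSG00000172037; hg38 chromosome 3, 49121114 to 49133118, minus strand) encodes the beta chain that takes the place of LAMB1 in some basement membranes. It stood at 86.6, 90.9 and 97.5 CPM in siC1QBP replicates 1, 2 and 3 and at 80.0, 74.8 and 73.0 CPM in siNC libraries. The groups did not overlap, and siC1QBP replicate 1 was the lowest of its group. The fitted log2 fold change was 0.27 (edgeR adjusted p = 0.00444; SE 0.058), and 0.31 without siC1QBP replicate 1. Per kb, LAMB2 came to 0.287, 0.307 and 0.329 of LAMB1 in siC1QBP libraries and to 0.283, 0.271 and 0.262 in siNC libraries.

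LAMB3 and LAMA3, chains of hemidesmosome laminin, were not called. LAMB3 stood at 1590.5, 1552 and 1549.7 CPM after siC1QBP and 1477, 1482 and 1489.8 CPM after siNC (log2 fold change 0.077, 95% interval 0.00065 to 0.15; edgeR adjusted p = 0.169). Every siC1QBP library lay above every siNC library. When libraries were scaled by size alone, LAMB3 was called higher (0.10; edgeR adjusted p = 0.0476). LAMA3 stood at 1820.2, 1716 and 1683 CPM after siC1QBP and 1849, 1794 and 1772 CPM after siNC (log2 fold change -0.053, 95% interval -0.14 to 0.031; edgeR adjusted p = 0.414). Replicates 2 and 3 of siC1QBP lay below all siNC libraries and replicate 1 among them. LAMA3 was called lower without siC1QBP replicate 1 (-0.089; edgeR adjusted p = 0.0277) and with the trend in gene length removed (-0.13; 0.0145).

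LAMA5, LAMB1 and LAMC1, which form a widespread epithelial trimer, were not called. LAMA5 stood at 691, 705 and 702 CPM after siC1QBP and 717, 732 and 697 CPM after siNC (95% interval -0.11 to 0.049), with overlapping groups. LAMC1 stood at 440.5, 404 and 411 CPM after siC1QBP and 401, 399 and 391.5 CPM after siNC (log2 fold change 0.075, 95% interval -0.015 to 0.17; 0.035 without siC1QBP replicate 1). LAMB1 stood at 357, 351 and 351 CPM after siC1QBP and 335, 328 and 330.0 CPM after siNC (log2 fold change 0.094, 95% interval 0.011 to 0.18; edgeR adjusted p = 0.123). The siC1QBP libraries of LAMC1 and LAMB1 all lay above the siNC libraries. LAMB1 was called higher with libraries scaled by size alone (0.12; edgeR adjusted p = 0.0450) and among genes with at least 10 CPM in 3 libraries (0.12; 0.0367). LAMA1, an embryonic chain, lay at 0.789 ± 0.0460 and 0.825 ± 0.346 CPM (SD, n = 3; 95% interval -0.90 to 0.77). LAMA2, the muscle chain, lay at 1.15 ± 0.210 and 0.945 ± 0.463 CPM (95% interval -0.49 to 1.09), and no change was detectable in either at this depth.

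**Figure D3:**
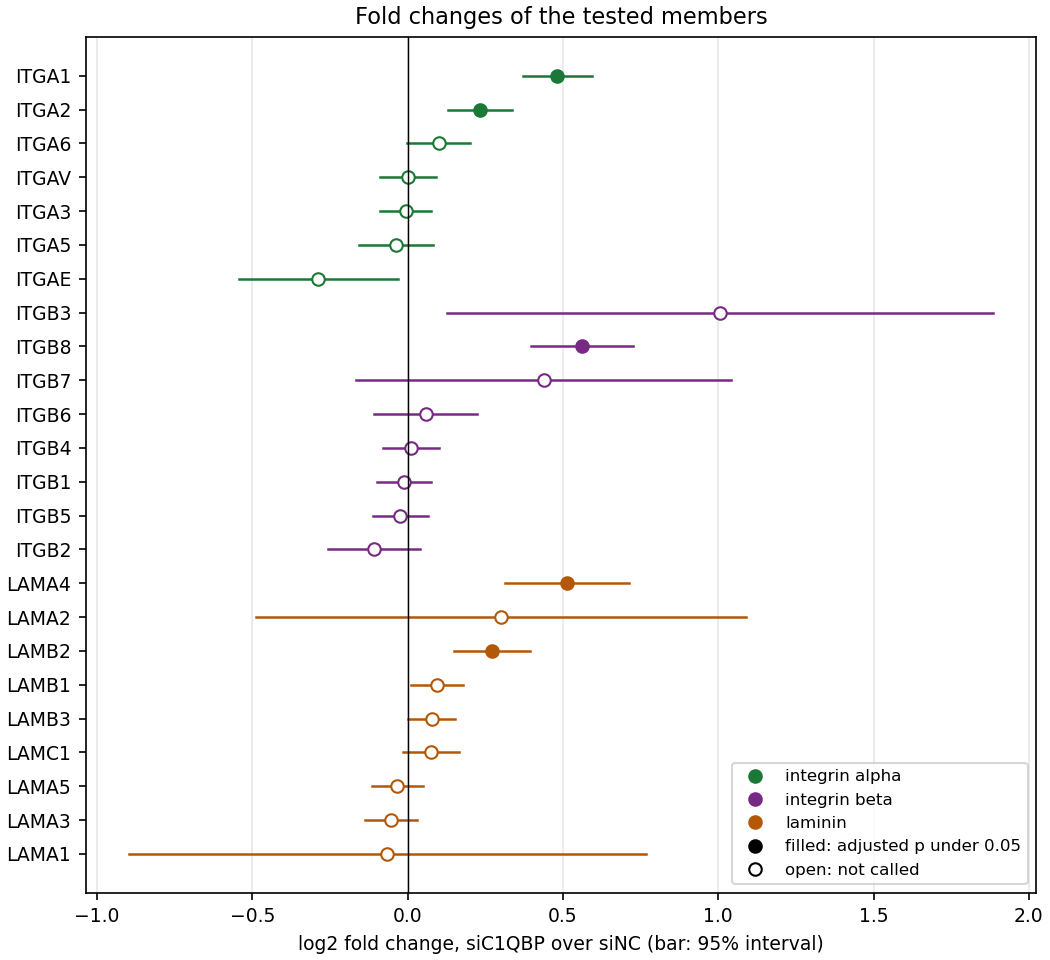
Log2 fold change, siC1QBP over siNC, of the tested members reported here with its 95% interval, by class; filled points passed an adjusted p under 0.05. The 5 filled points lie between 0.23 and 0.56, and the faint genes ITGB3, ITGB7, LAMA1 and LAMA2 have the widest intervals.

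By class, 2 of 7 tested alpha genes rose and 0 fell (median log2 fold change 0.0014), 1 of 8 beta genes rose and 0 fell (0.034), and 2 of 10 laminin genes rose and 0 fell (0.080), by edgeR, against 6.47% higher and 7.84% lower over all tested genes. At an unadjusted p under 0.05 the genes higher were 2, 2 and 5 in these classes and the genes lower 1, 0 and 0. No share over all tested genes is given here at that unadjusted level, so no excess is read from these counts in any class. DESeq2 and limma-voom called the same 5 genes and no other member. Alpha chains summed to 2608 to 2816 CPM in siC1QBP and 2461 to 2559 CPM in siNC libraries. Beta chains summed to 2102 to 2229 and 2139 to 2187 CPM, which overlap.

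The other 13 members did not pass the filter and have no fold. ITGA7 had at most 21 counts in a library, ITGAM 13, ITGA10 10 and LAMB4 7. ITGA11 and ITGA2B had at most 4, ITGA9 3 and ITGAX 2. ITGA4, ITGAL, ITGAD and LAMC3 had at most 1, and ITGA8 had 0 counts in all 6 libraries.

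Chains that can stand in for each other were compared as ratios per kb within a library, which no scaling changes. LAMA3 over LAMA5 was 2.56, 2.37 and 2.34 in siC1QBP and 2.51, 2.38 and 2.48 in siNC libraries (two-sided exact permutation p = 0.8). LAMB3 over LAMB1 was 7.73, 7.67 and 7.66 against 7.65, 7.85 and 7.84 (exact permutation p = 0.4). The groups overlapped in both laminin ratios. ITGB4 over ITGB1 was 0.239, 0.243 and 0.239 against 0.228, 0.238 and 0.244 (exact permutation p = 0.6), and ITGB6 over ITGB5 was 0.0995, 0.102 and 0.107 against 0.0936, 0.0960 and 0.102 (exact permutation p = 0.2), again with overlap. ITGA3 over ITGA6 was 1.80, 1.91 and 1.88 in siC1QBP and 1.93, 2.02 and 2.05 in siNC libraries, without overlap (exact permutation p = 0.1, the lower limit for 3 against 3 libraries). The lowest p adjusted over 6 ratios, of which 1 is not reported here, was 0.6.

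**Figure D4:**
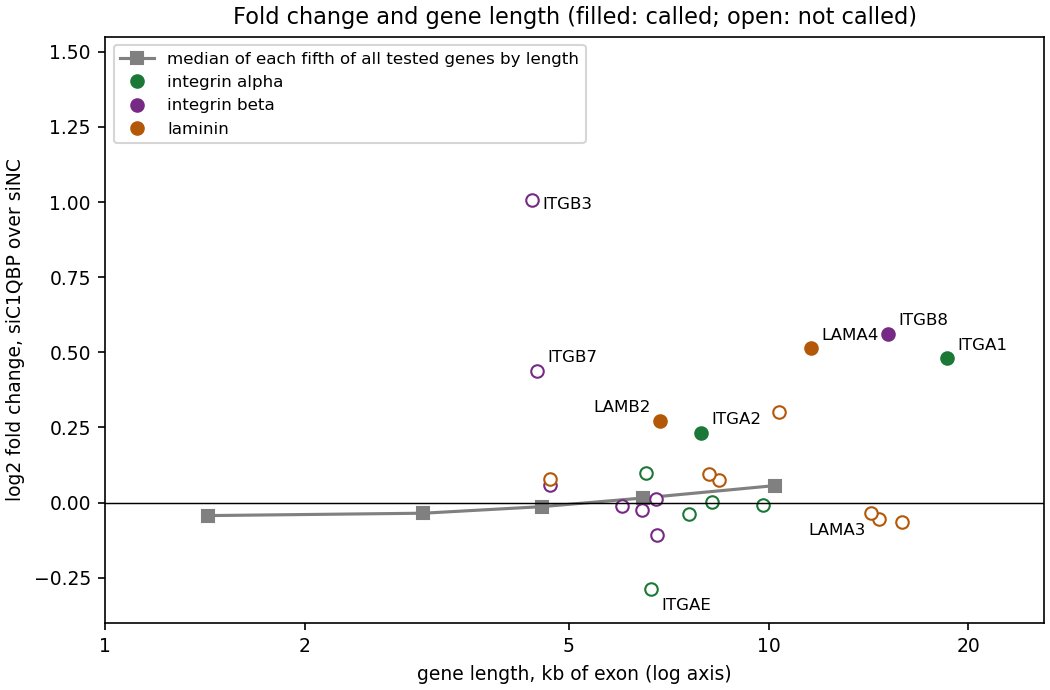
Log2 fold change of the tested members reported here against gene length in kb of exon (log axis), filled where called; grey squares are medians of 5 equal groups of all tested genes by length. The grey medians go from -0.043 for the shortest to 0.057 for the longest genes. The called genes LAMA4, ITGB8 and ITGA1 lie above the last of them. The spread around the medians is not shown, so these positions add nothing to the calls.

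Fold changes moved with gene length over all genes, and the members are long genes, with a median of 7577 exon bases against 4547 for all tested genes. The tested genes were split by length into 5 groups of 3106. Of the longest group 12.7% were called higher and 3.19% lower, and of the shortest 2.90% and 11.4%. Of the 12 members in the longest group 4 were called higher: ITGA1, ITGA2, ITGB8 and LAMA4. Among the 7637 tested protein-coding genes at least as long as the shortest tested member, 14.3% were called, 9.14% higher and 5.15% lower. With the length trend of each library removed, the 5 genes were still called, with log2 fold changes of 0.38 for ITGA1, 0.48 for ITGB8, 0.45 for LAMA4, 0.25 for LAMB2 and 0.20 for ITGA2. Mitochondrially encoded genes took 4.20% to 4.80% of counts in siC1QBP and 3.66% to 3.88% in siNC libraries, and the part of this in the results was not tested.

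**Figure D5:**
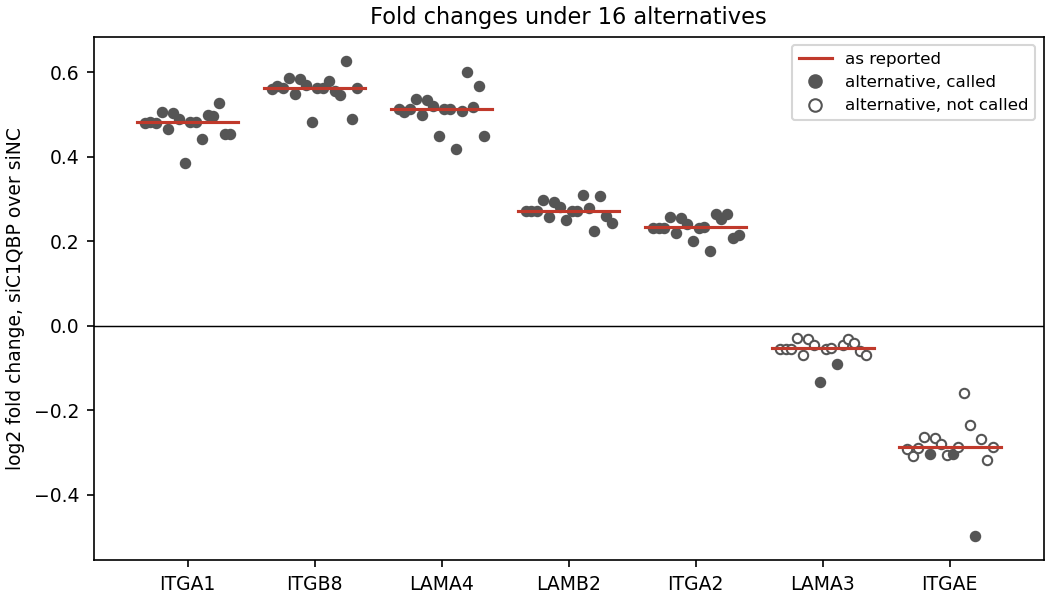
Log2 fold change of the 5 called genes, LAMA3 and ITGAE under 16 alternatives (points, filled where called) beside the value reported (red line). The 5 genes are filled under every alternative shown, LAMA3 under 2 and ITGAE under 3.

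Of 19 tested integrin ligands other than laminins 8 rose, 2 fell and 9 were not called (median log2 fold change 0.15). These counts and those of the lists that follow stand beside 6.47% higher, 7.84% lower and a median of 0.0026 over all tested genes. The lists were not matched for gene length. In the longest group of tested genes 12.7% were called higher and 3.19% lower, with a median of 0.057. TGFBI, an integrin-binding matrix protein, stood at 1251, 1199.7 and 1171 CPM after siC1QBP and 949.6, 952 and 956 CPM after siNC (log2 fold change 0.34; edgeR adjusted p = 3.26e-05). FN1, fibronectin, stood at 1272, 1185 and 1187 CPM after siC1QBP and 1047, 994 and 993 CPM after siNC (log2 fold change 0.26; edgeR adjusted p = 0.000544). For both, the lowest siC1QBP library lay above the highest siNC library. COL1A1, a chain of fibrillar collagen, rose by 0.43 and COL6A1 fell by 0.22 on the log2 scale. VTN and SPP1, the ligands vitronectin and osteopontin, did not pass the filter, at means of 0.237 and 0.208 CPM in siC1QBP libraries. LTBP1 (0.35) and LTBP3 (0.20), which bind latent TGF-beta, were among the rises and are named after their values were seen. The remaining rises, CTGF (0.46), ICAM1 (0.24) and CYR61 (0.18), had smaller edgeR p than LTBP1 and LTBP3. COL6A2 (-0.13) was the other ligand called lower.

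Among basement membrane partners of laminin 4 of 13 tested genes rose and 1 fell (median 0.17). COL7A1, the anchoring fibril collagen, rose by 0.34 on the log2 scale (edgeR adjusted p = 0.000825), and the laminin-related NTN4 by 0.19. AGRN, a laminin-binding proteoglycan, stood at 986 ± 16.8 CPM after siC1QBP and 1129.7 ± 18.3 CPM after siNC (SD, n = 3) and fell by 0.20. Among hemidesmosome and tetraspanin partners 2 of 11 rose and 4 fell (median -0.13). COL17A1, the hemidesmosome's transmembrane collagen, rose by 0.19, while PLEC, its keratin linker, fell by 0.21 and the tetraspanin CD82 fell by 0.27. Of 13 non-integrin laminin receptors and their processing enzymes 1 rose, the syndecan SDC4 (0.32; edgeR adjusted p = 0.000222), and 12 were not called.

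Inside the cell, 1 of 29 tested integrin activators and tail adaptors rose and 3 fell (median -0.061). RAP1B, a GTPase that activates integrins, fell by 0.25 and the tensin TNS4 fell by 0.16 on the log2 scale, and the kindlin FERMT1 rose by 0.16. ILK, the integrin-linked pseudokinase, was called lower at 4.35 against 6.60 CPM, but it shares 2374 of its 3484 exon bases with the opposite-strand gene TAF10 (18.3 against 25.9 CPM), so its value is uncertain. Of 23 tested trafficking and processing genes 1 rose and 4 fell (median -0.0074). The early endosome GTPase RAB5A rose by 0.26, the recycling GTPase ARF6 fell by 0.28 and the chaperone CALR fell by 0.18. Of 16 tested matrix proteases and inhibitors 4 rose and 12 were not called (median 0.096), among the rises MMP7 (0.34), MMP1 (0.27) and MMP14 (0.18).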

How the data were processed

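The authors deposited raw counts per gene, with no normalization, for 6 libraries of total RNA, made with a strand-marking kit per the labels' protocols. The build is hg38 per the submitters' processing notes. With the aligner, counter and strand setting not given in the sources used here, reads of overlapping and antisense genes may sit with either partner. Coordinates of all 58735 genes matched GENCODE release 29. The labels do not say that replicates were separate cultures, and p-values then reflect only variation among these libraries, possibly technical. Members and lists were chosen with earlier results of these data known.

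Counts were fitted with edgeR 4.0.16 (R 4.3.3; quasi-likelihood test, TMM scaling, default low-count filter, treatment only). Standard errors (SE) are the log2 fold change over the root of F, and 95% intervals use the t distribution on the fitted degrees of freedom. The test was run on simulated data first. Alternatives were DESeq2 1.42.0, limma-voom (limma 3.58.1), other scalings and filters, protein-coding genes only, removal of each library's length trend (lowess, span 0.5), the replicate number as a block, an adjusted p under 0.01 and each library left out. Every tested member is named except 1 that, like some markers, is not reported here, and those called or with at least 50 CPM have each library's value. From each partner list the text names up to 3 called genes with the smallest p and 1 in the opposite direction, and FN1, TGFBI, VTN and SPP1. LTBP1, LTBP3, CTGF, ICAM1, CYR61 and COL6A2 fall outside that rule and were named after their values were seen.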

Additional observations from a re-analysis of the deposited data

How the results depend on the processing

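ITGA1, ITGA2, ITGB8, LAMA4 and LAMB2 were called under all 16 alternatives; ITGA2 came nearest to the threshold (adjusted p = 0.0457 without siNC replicate 2), then LAMB2 (highest 0.0402). Calls over all genes numbered 2222, 1057 at an adjusted p under 0.01, and 1105 to 2583 with 1 library left out, of which 1105 without siNC replicate 2 and 1178 without siNC replicate 3. Each of those fits has 1 sample fewer, and calls numbered 2583 without siC1QBP replicate 1 and 2004 without siNC replicate 1. What sets these counts was not tested. Library size as the only scaling gave 1253 genes higher and 908 lower and 5 laminin calls in place of 2. This setting drops the TMM factors, which were 0.9997 to 1.014 in siC1QBP and 0.9886 to 0.9963 in siNC libraries. The median log2 fold change over all tested genes moved up by 0.0251. Why those factors differ between the groups was not tested.

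Members near zero changed sign without a call. With library size only the log2 fold change was 0.018 for ITGA3, 0.013 for ITGB1 and 0.0013 for ITGB5. At least 10 CPM gave 0.015 for ITGA3 and 0.010 for ITGB1, and protein-coding genes only 0.0013 for ITGA3. Genes with at least 1 count gave -0.013 for ITGAV and -0.0037 for ITGB4, removal of the length trend -0.035 and -0.0094, and limma-voom 0.032 for LAMA1. With 1 library left out, values ran from -0.035 to 0.0073 for ITGA3, -0.069 to 0.0041 for ITGA5, -0.018 to 0.021 for ITGAV, -0.049 to 0.0051 for ITGB1, -0.022 to 0.030 for ITGB4 and -0.36 to 0.18 for LAMA1. Ratios ran from -0.063 to 0.0046 for LAMA3 over LAMA5 and from -0.0035 to 0.045 for ITGB4 over ITGB1. The cause was not tested.

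Deviations from the group mean correlated over genes at 0.0437, 0.0331 and -0.0094 between same-numbered replicates 1, 2 and 3 of the groups. Between replicates of different number the correlations ran from -0.0479 to 0.0213. Whether same-numbered libraries share a batch was not tested. With the replicate number as a block, calls over all genes numbered 3092, and the 5 members stayed called, with ITGAE called lower (-0.30; edgeR adjusted p = 0.0381).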

Other observations

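Some biliary epithelial markers differed between the groups in opposite directions. The mucin MUC1 rose by 0.61 and the chloride channel CFTR by 0.47 on the log2 scale. The keratin KRT7 stood at 3105, 3226 and 3122 CPM in siC1QBP and 3683, 3826 and 3790.3 CPM in siNC libraries and fell by 0.26, and KRT19 fell by 0.19.

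Genes that share exons with a member did not always move with it. ADRM1, a proteasome ubiquitin receptor that shares 244 exon bases with LAMA5 on the opposite strand, stood at 143 against 181 CPM (log2 fold change -0.34; edgeR adjusted p = 0.00107), while LAMA5 was not called.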
